A study of Mus musculus with 4 samples.

Results

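The genes described here encode SR proteins, heterogeneous nuclear ribonucleoproteins (hnRNPs) and related RNA-binding proteins. They were chosen by name, as 46 of the 48432 gene rows of the deposited table, and each of the 46 names matched 1 row with the status OK in both groups. Polyadenylated RNA was sequenced from cardiomyocytes, the muscle cells of the heart, released from mouse hearts by Langendorff perfusion. The MHC control group (2 libraries, genotype label MHC) and the Rbfox2 OE group (2 libraries, genotype label RbFox2) were both on a C57BL x FVB background, and both had received doxycycline in the diet for 3 days. Rbfox2 OE stands for overexpression of RBFOX2, a splicing regulator. The labels do not describe the promoter of the transgene, the age or sex of the animals, or how many hearts went into a library.

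SR proteins carry RNA recognition motifs and a tail rich in arginine-serine repeats. They bind exons and recruit the spliceosome to nearby splice sites. The hnRNPs coat nascent transcripts and often repress the exons that SR proteins activate, so the balance between the families shapes which exons are kept. Many genes of both families limit their own output by splicing in a poison exon or retaining an intron, which sends the transcript to nonsense-mediated decay (NMD). RBFOX proteins act beside them by binding the sequence UGCAUG in pre-mRNA.

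The authors' table gave 1 value per gene and group in FPKM (fragment number corrected for transcript length and sequencing depth), with a lower and an upper bound whose level is not stated. FPKM is a level per length, so levels can be set side by side between genes. It holds no values of single libraries, so there was no replicate spread and no test between the groups. A difference is given below as a ratio of FPKM values, or as a log2 ratio, Rbfox2 OE divided by MHC control with 1 FPKM added to each value, which understates changes of low genes. Every fold threshold is applied to FPKM + 1 unless a plain ratio is named. Bounds stand in parentheses after a value, and of 2 values for a gene the first is MHC control and the second Rbfox2 OE. Separate bounds means that the intervals of the groups did not overlap. A gene was compared where its values averaged 1 FPKM or more, which left 11697 genes, all 46 members included.

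The overexpressed gene stood at 14.7 FPKM (10.4 to 19.0) in MHC control against 293 FPKM (214 to 373) in Rbfox2 OE. Its relative Rbfox1, the form typical of heart muscle and neurons, was at 15.7 FPKM (9.98 to 21.4) against 0.300 FPKM (0.106 to 0.494). Markers of the labelled cell type were present in both groups, with Tnnt2, the cardiac troponin T gene, at 10609 and 6917 FPKM. Myh6 and Mb were listed at 0 in both groups because the authors' status marked them as having too many fragments to estimate.

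As deposited, most members differed by less than their bounds. On FPKM + 1, Khdrbs1 was the 1 member of 46 that was at least 2-fold higher in Rbfox2 OE, and it was also the 1 member with separate bounds. Over all genes compared, 6.97% were at least 2-fold higher and 6.67% were higher with separate bounds. No member was 2-fold lower or lower with separate bounds (0 of 46 each), where 10% and 9.33% of all genes were. By the plain ratio Ptbp3 also reached 2-fold, which made 2 members, against 10.5% of all genes with a value above 0 in MHC control. In either direction on FPKM + 1, 17% of all genes were 2-fold apart and 16.0% had separate bounds. The remaining 45 members had overlapping bounds, and for 30 members each group's value lay inside the other group's interval. For this count of 30, no share over all genes compared is given here. The bounds are wide, with a median distance from value to upper bound of 34.9% (MHC control) and 34.8% (Rbfox2 OE), so differences under 2-fold could seldom be separated.

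Within those bounds the values leaned towards Rbfox2 OE. The log2 ratio was above 0 for 37 members (80.4%) and below 0 for 9, against 46.2% above 0 over all genes compared. The median log2 ratio of the members was 0.23, with quartiles of 0.09 and 0.49, and that of all genes compared was -0.06. Summed over the members, the level was 2242 FPKM in MHC control against 2783 FPKM in Rbfox2 OE, a ratio of 1.24. At a 1.5-fold threshold on FPKM + 1, 7 members were higher and 2 were lower, against 16.6% and 22.1% of all genes. By the plain ratio Hnrnpf also reached 1.5-fold, which made 8 members higher, against 20.5% of all genes with a value above 0 in MHC control. How the groups are scaled moves these values: rescaling on a set of genes without mitochondrial and the most abundant ones raised Rbfox2 OE by 0.15 on the log2 scale, moved the median of all genes to 0.06 and that of the members to 0.38, and left the median of the members 0.32 above that of all genes (0.29 as deposited). Over all genes, the 815 at least 2-fold higher and 1172 lower became 1047 and 919 on rescaling, and 920 and 1046 after centring on the median gene. On rescaling, 6 members were at least 2-fold higher (13.0%, against 8.95% of all genes) and 3 were higher with separate bounds (6.52%, against 8.64%).

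**Figure D1:**
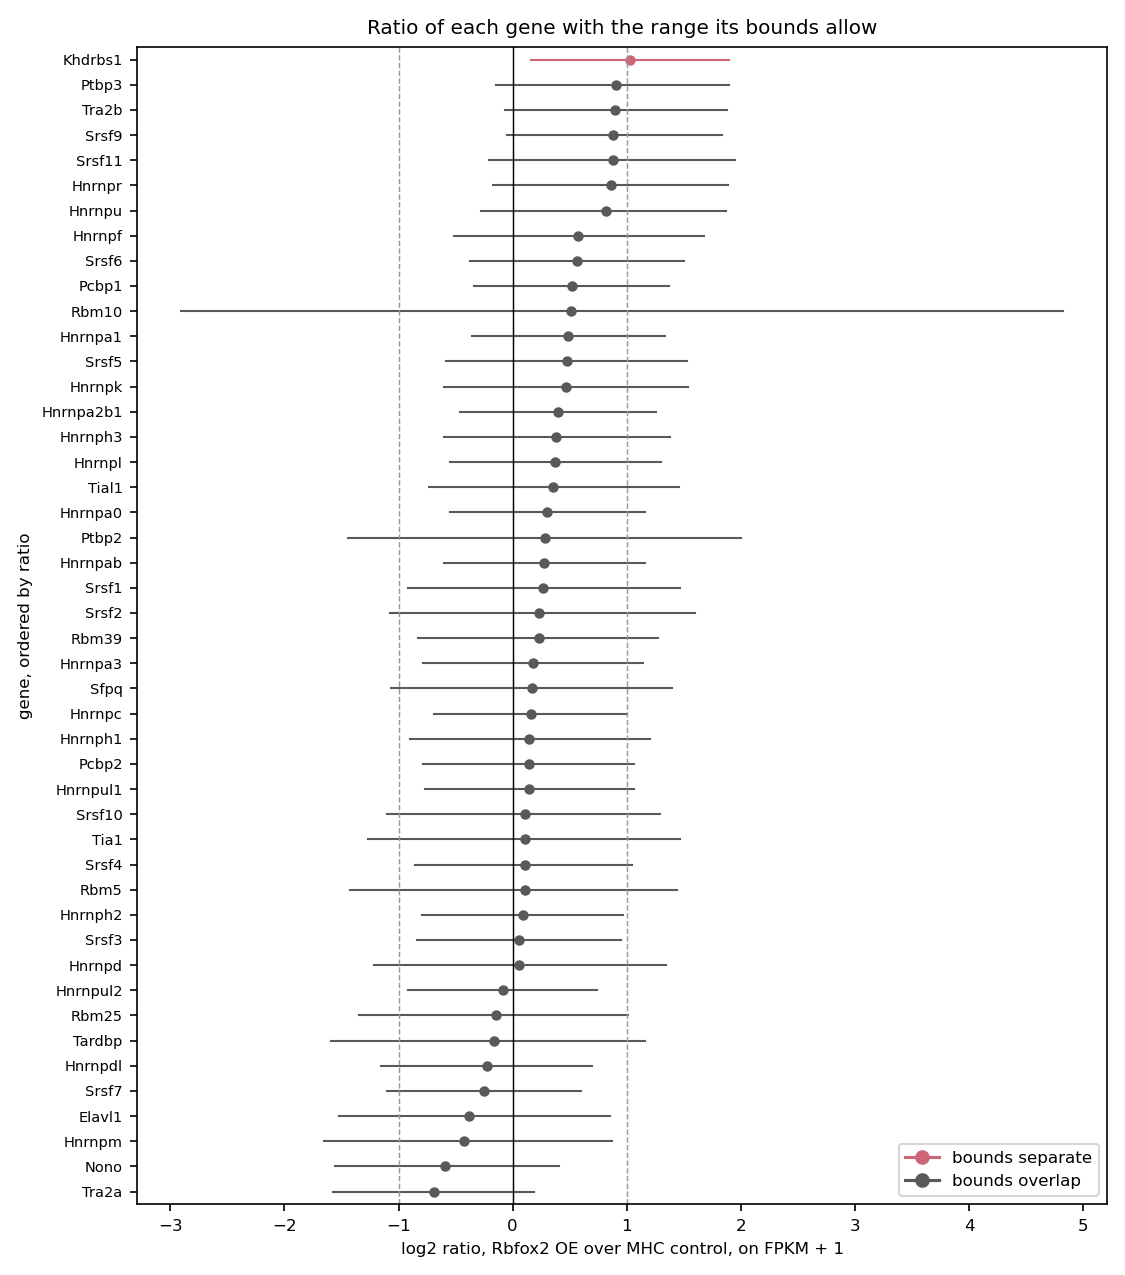
Log2 ratio of each of the 46 genes, Rbfox2 OE over MHC control on FPKM + 1 (points), with lines from the lowest to the highest ratio that the authors' bounds allow and dashed lines at 2-fold. Khdrbs1 is the 1 gene whose line does not cross 0, and 37 of the points lie to the right of 0.

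**Figure D2:**
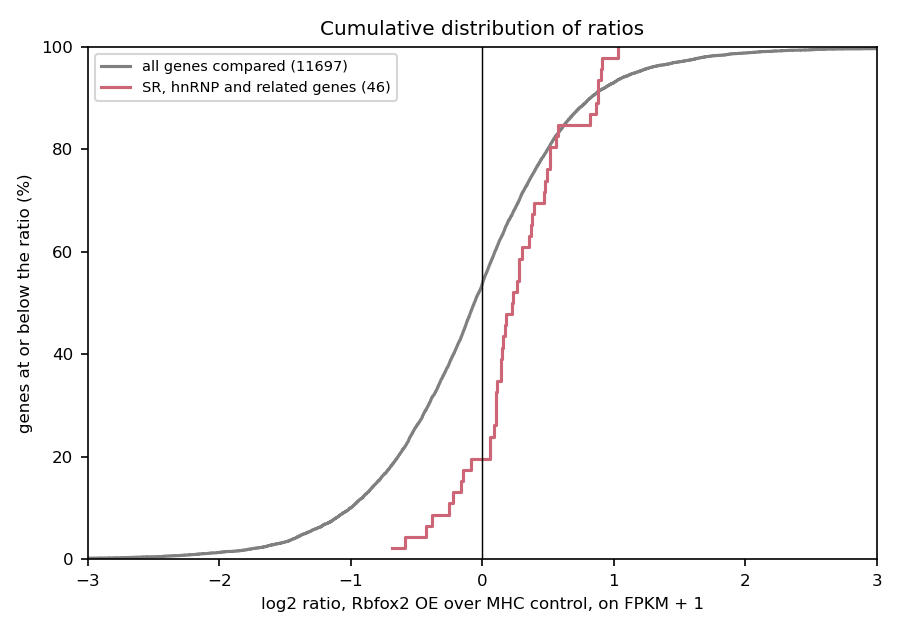
Share of genes (vertical axis, %) at or below each log2 ratio (horizontal axis, limited to -3 to 3), for the 46 genes and for the 11697 genes compared. The curve of the 46 genes lies to the right around 0, with medians of 0.23 and -0.06, and is steeper.

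Markers of other cell types were also higher in Rbfox2 OE, and their part in these values was not tested. All 12 macrophage and leukocyte markers were higher in Rbfox2 OE, 11 of them with separate bounds, and their summed level was 165 FPKM in MHC control against 562 FPKM in Rbfox2 OE. All 10 fibroblast markers were higher, 7 with separate bounds, with sums of 241 and 582 FPKM. All 10 endothelial markers were higher, 4 with separate bounds, with sums of 515 and 787 FPKM, and so were all 8 smooth muscle and pericyte markers, 3 with separate bounds, with sums of 147 and 328 FPKM. All 5 red blood cell markers compared were higher, 4 with separate bounds, with sums of 56.6 and 295 FPKM. Of the 10 cardiomyocyte markers with an estimate, 9 were lower, 5 with separate bounds, with sums of 58823 and 37104 FPKM. In bulk RNA, fewer cells of a type and less RNA per cell cannot be told apart.

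**Figure D3:**
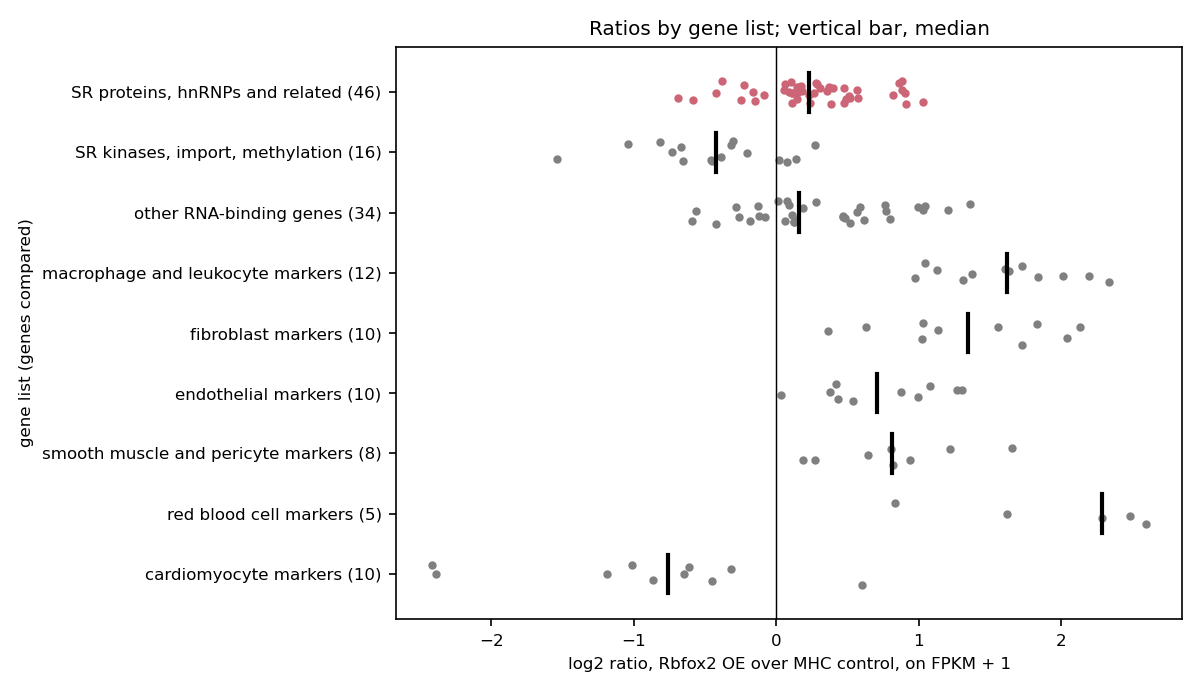
Log2 ratios of single genes (points) in the 46 genes, in 2 lists of related genes and in 6 lists of cell type markers, with the median of each list as a vertical bar. The 46 genes have a median of 0.23, while the medians of the marker lists run from -0.76 for cardiomyocyte markers to 2.28 for red blood cell markers.

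Khdrbs1 encodes SAM68, a KH-domain protein of the STAR family that binds A/U-rich RNA and takes part in alternative splicing and in signalling. The gene (ENSMUSG00000028790.13, GRCm38 chromosome 4, 129703164 to 129742303, minus strand, protein-coding) overlaps no other annotated gene. It stood at 15.7 FPKM (10.8 to 20.5) in MHC control against 33.0 FPKM (23.1 to 42.9) in Rbfox2 OE. The lower bound of Rbfox2 OE was thus above the upper bound of the control. The ratio was 2.11 and the log2 ratio 1.03, and the bounds allow a log2 ratio from 0.16 to 1.90. Its paralogue Khdrbs3, which is no member, was at 26.3 FPKM (18.3 to 34.3) in MHC control against 17.4 FPKM (12.1 to 22.8) in Rbfox2 OE. The paralogues thus had values in opposite order in the groups, and the bounds of Khdrbs3 overlapped.

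The SR proteins were 10 genes, of which 9 were higher in Rbfox2 OE and 0 had separate bounds. Their median log2 ratio was 0.25, and their summed level was 346 FPKM in MHC control against 452 FPKM in Rbfox2 OE. The most abundant was Srsf5, an SR protein with a pair of RNA recognition motifs, at 116 FPKM (75.5 to 157) in MHC control against 162 FPKM (104 to 219) in Rbfox2 OE. It supplied 33.5% and 35.8% of the summed SR protein level in MHC control and Rbfox2 OE. Srsf2 (SC35), which also marks nuclear speckles, followed at 58.4 and 68.8 FPKM, and Srsf1 (SF2/ASF), the founding member of the family, at 42.1 and 50.8 FPKM.

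The SR genes nearest to separate bounds were Srsf9 and Srsf11. Srsf9 (chromosome 5, 115327177 to 115333080, plus strand), a close relative of Srsf1, was at 5.66 FPKM (3.51 to 7.82) in MHC control against 11.3 FPKM (7.54 to 15.0) in Rbfox2 OE. The ratio was 1.99 and the log2 ratio 0.88, and the intervals overlapped by 0.281 FPKM. Srsf11 (chromosome 3, 158010473 to 158036639, minus strand), an SR-related protein that binds U2AF, was at 20.6 FPKM (13.1 to 28.0) against 38.7 FPKM (24.2 to 53.3), a ratio of 1.88. Both were higher in Rbfox2 OE with values outside the other group's interval, but the intervals themselves overlapped. Srsf6, which acts on exons of sarcomere genes such as titin, came next at 29.3 FPKM (19.8 to 38.9) against 43.8 FPKM (29.7 to 58.0).

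The remaining SR genes had log2 ratios from -0.25 to 0.11. Srsf3, the smallest SR protein, was at 26.4 and 27.6 FPKM. Srsf4, an SR protein close to Srsf6 in its domains, was at 17.1 and 18.4 FPKM. Srsf10, a splicing repressor when dephosphorylated, was at 20.5 and 22.2 FPKM. Srsf7, which has a zinc knuckle beside its RNA recognition motif, was the 1 SR gene lower in Rbfox2 OE, at 10.1 FPKM (6.91 to 13.3) against 8.32 FPKM (5.65 to 10.997), with a log2 ratio of -0.25.

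The Tra2 genes encode SR-like activators that bind GAA-rich exonic enhancers, and their values lay in opposite order in the groups. Tra2a (chromosome 6, 49243924 to 49264033, minus strand) was at 16.0 FPKM (11.002 to 20.9) in MHC control against 9.53 FPKM (6.39 to 12.7) in Rbfox2 OE, the lowest log2 ratio among the members, -0.69. Tra2b (chromosome 16, 22244549 to 22266005, minus strand) was at 24.96 FPKM (16.4 to 33.5) against 47.4 FPKM (31.9 to 62.9), a log2 ratio of 0.90. The intervals overlapped by 1.67 FPKM for Tra2a and by 1.60 FPKM for Tra2b, so neither difference was separated from its bounds. Tra2b was thus 1.56 times as abundant as Tra2a in MHC control, against 4.98 times in Rbfox2 OE. The bounds allow 0.782 to 3.05 for the first ratio and 2.52 to 9.85 for the second, and these ranges overlap. Of the summed Tra2 level, Tra2b supplied 61.0% in MHC control against 83.3% in Rbfox2 OE.

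**Figure D4:**
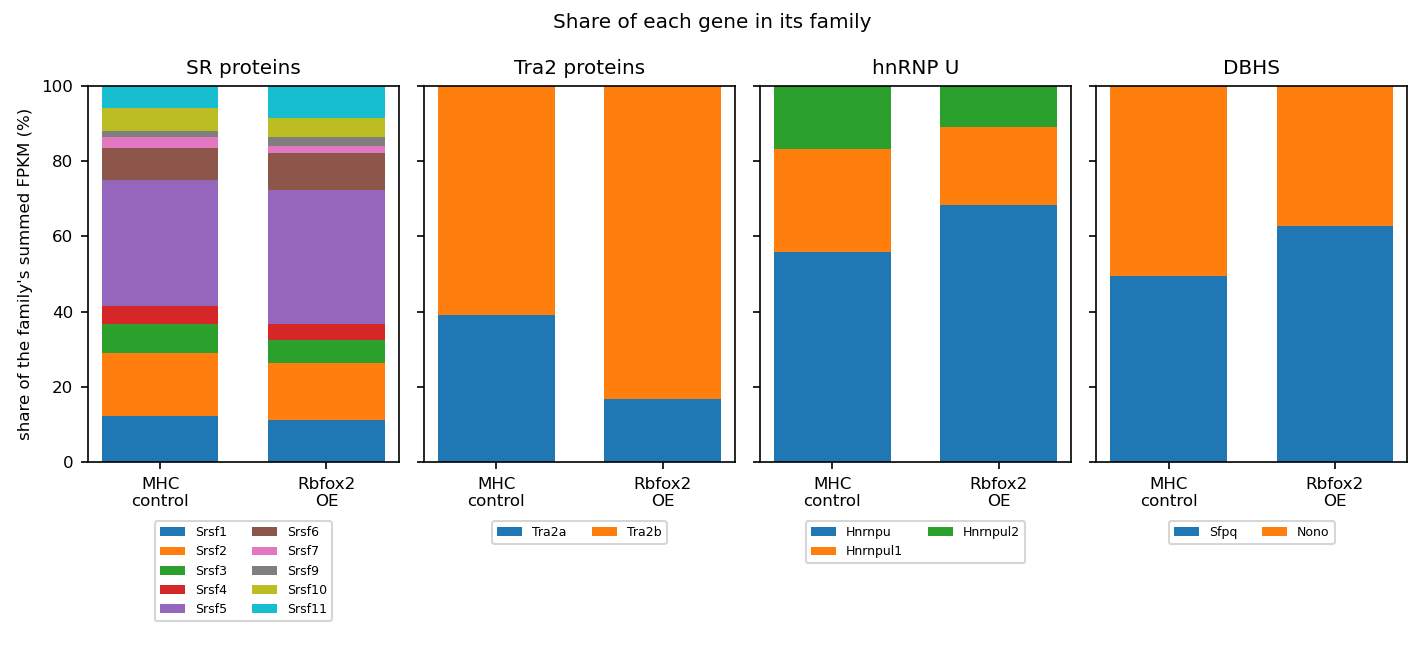
Share of each gene (%) in the summed FPKM of its family in each group, for the SR proteins, the Tra2 proteins, the hnRNP U family and the DBHS proteins; no error is shown because each group has 1 value. The Tra2b share is 61.0% (MHC control) and 83.3% (Rbfox2 OE), while the shares of the SR proteins move by less than 3 percentage points.

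The promoters of the Tra2 pair and of Srsf9 are printed to set the sequence before the start of each gene beside its value. They run from 250 bases before to 50 bases after an annotated start, are taken from RefSeq on GRCm38.p6 and are read 5′ to 3′ on the gene's strand. Capitals mark the letters of 4 motifs. The CCAAT box was searched by its own letters. The GC box was searched as GGGCGG. The TATA box was searched as TATAAA. The cAMP response element was searched as TGACGTCA, which is the same on both strands. All were searched on both strands. None of these letters overlap another motif in the sequences shown.
Tra2a, chr6:49264003-49264302, minus strand: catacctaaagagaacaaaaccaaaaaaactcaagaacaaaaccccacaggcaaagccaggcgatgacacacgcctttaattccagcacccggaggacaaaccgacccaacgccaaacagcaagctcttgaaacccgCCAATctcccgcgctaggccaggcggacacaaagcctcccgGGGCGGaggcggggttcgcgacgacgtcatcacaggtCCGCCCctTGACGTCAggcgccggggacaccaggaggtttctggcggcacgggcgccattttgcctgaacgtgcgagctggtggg
Tra2b, chr16:22265956-22266255, minus strand: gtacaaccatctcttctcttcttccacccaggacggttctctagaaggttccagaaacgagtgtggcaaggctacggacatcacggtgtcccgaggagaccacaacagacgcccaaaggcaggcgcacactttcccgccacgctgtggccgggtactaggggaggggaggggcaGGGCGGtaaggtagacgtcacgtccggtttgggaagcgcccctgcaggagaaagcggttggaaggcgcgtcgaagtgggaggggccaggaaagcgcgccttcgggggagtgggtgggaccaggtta
Srsf9, chr5:115326927-115327226, plus strand: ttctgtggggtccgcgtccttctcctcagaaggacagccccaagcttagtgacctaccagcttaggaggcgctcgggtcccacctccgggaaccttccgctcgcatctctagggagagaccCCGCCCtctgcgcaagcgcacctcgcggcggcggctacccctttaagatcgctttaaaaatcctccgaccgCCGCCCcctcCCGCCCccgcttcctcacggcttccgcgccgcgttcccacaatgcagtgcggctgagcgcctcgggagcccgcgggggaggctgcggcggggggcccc

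The Tra2a promoter holds a CCAAT box, 2 GC boxes and the cAMP response element, the Tra2b promoter 1 GC box, and the Srsf9 promoter 3 GC boxes. Of 58 promoters found for 43 of the members, 72.4% hold a GC box, 46.6% a CCAAT box, 8.62% a TATA box and 1.72% (1 promoter, that of Tra2a) the cAMP response element. Over 32851 mouse promoters of the same length, the shares are 35.7%, 37.4%, 13.6% and 1.79%. These promoters belong to 27025 genes and were not limited to the genes compared here. The members' promoters have a median of 27.5 CG pairs, against 7 over all promoters. A match is a description of the letters and not a measured binding site.

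The hnRNP A/B and D genes, whose proteins bind and often silence exons, held the most abundant member. Hnrnpa2b1 was at 343 FPKM (245 to 442) in MHC control against 452 FPKM (320.3 to 584) in Rbfox2 OE, which placed it at rank 175 by mean level among the genes compared. Hnrnpab, which binds AU-rich RNA and single-stranded DNA, was at 133 FPKM (93.3 to 173) against 162 FPKM (114 to 209.6). Hnrnpa1, an antagonist of Srsf1 in splice site choice, was at 91.3 FPKM (64.8 to 118) against 129 FPKM (91.8 to 165). All 3 were higher in Rbfox2 OE with overlapping bounds, and their log2 ratios were 0.40, 0.28 and 0.49. Hnrnpa1 shares 28.2% of its 50-base transcript sequences with other annotated genes, nearly all pseudogenes, so part of its reads could be assigned elsewhere. The pseudogene that shares most, Gm10052, was at 0.573 FPKM in MHC control against 0.679 FPKM in Rbfox2 OE.

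Hnrnpa3 and Hnrnpa0, relatives of Hnrnpa1, were at 79.9 and 90.8 FPKM and at 25.2 and 31.3 FPKM. Hnrnpd (AUF1), known for the turnover of AU-rich mRNAs, was at 48.0 and 49.96 FPKM. Its neighbour in sequence Hnrnpdl was the 1 gene of this family lower in Rbfox2 OE, at 54.6 FPKM (37.4 to 71.7) against 46.5 FPKM (31.6 to 61.4). The family summed to 776 FPKM in MHC control against 961 FPKM in Rbfox2 OE, with 6 of 7 genes higher and 0 with separate bounds. Hnrnpc, which forms the tetramer at the core of hnRNP particles, was at 40.5 and 45.3 FPKM.

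The hnRNP F/H proteins bind G-runs, and all 4 of their genes were higher in Rbfox2 OE with overlapping bounds. Hnrnpf had the largest log2 ratio of them, 0.58, at 34.4 FPKM (21.5 to 47.3) in MHC control against 51.7 FPKM (32.7 to 70.7) in Rbfox2 OE, and 36.8% of its 50-base sequences are shared with other genes. Hnrnph1, Hnrnph2 and Hnrnph3 had log2 ratios of 0.15, 0.09 and 0.38. The poly(C)-binding proteins gave the same picture. Hnrnpk was at 115 FPKM (74.7 to 156) against 160.3 FPKM (102 to 218), and its pseudogene Gm7964, which shares 13.3% of its 50-base sequences, at 10.7 and 13.96 FPKM. Pcbp1, an intronless gene whose protein also delivers iron to ferritin, was at 84.6 FPKM (59.9 to 109) against 122 FPKM (86.4 to 157). Its relative Pcbp2 was at 65.6 and 72.5 FPKM.

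Among Hnrnpl and the polypyrimidine tract-binding proteins, which repress exons flanked by pyrimidine-rich sequence, Ptbp3 had the largest log2 ratio of the 3 members. It was the least abundant of the 46 in MHC control and by the mean of the groups, while in Rbfox2 OE the levels of Tia1, Srsf7 and Tra2a lay below its own. Ptbp3 (chromosome 4, 59471868 to 59549364, minus strand) was at 4.61 FPKM (2.87 to 6.35) in MHC control against 9.54 FPKM (5.63 to 13.4) in Rbfox2 OE. The plain ratio was 2.07, the log2 ratio after adding 1 FPKM was 0.91, and the intervals overlapped by 0.720 FPKM. Ptbp2, the form typical of neurons, was at 8.64 FPKM (3.48 to 13.8) against 10.7 FPKM (4.45 to 16.99). Hnrnpl was at 60.2 and 78.2 FPKM. Ptbp1, the founding gene of the family and no member here, was at 16.1 FPKM (8.69 to 23.6) against 34.2 FPKM (20.1 to 48.3). All 4 genes were higher in Rbfox2 OE, and none of them had separate bounds.

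Hnrnpr and Hnrnpm lay in opposite order. Hnrnpr (chromosome 4, 136310942 to 136359447, plus strand), which binds many mRNAs in the nucleus and in neurites, was at 20.4 FPKM (13.2 to 27.6) in MHC control against 37.8 FPKM (24.3 to 51.4) in Rbfox2 OE. Hnrnpm, which binds GU-rich RNA, was at 45.7 FPKM (25.4 to 66.0) against 33.8 FPKM (20.3 to 47.2). The bounds overlapped in both cases. The locus of Hnrnpm runs into that of March2, with which it shares 13.5% of its 50-base sequences, and March2 was at 55.5 FPKM in MHC control against 21.4 FPKM in Rbfox2 OE. Fragments of one gene could therefore have been counted for the other.

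Hnrnpu (SAF-A), a scaffold protein that binds chromatin and RNA, was higher than its relatives in level and in ratio. The gene (chromosome 1, 178321108 to 178337797, minus strand) was at 69.7 FPKM (45.8 to 93.7) in MHC control against 124 FPKM (77.3 to 169.8) in Rbfox2 OE, a ratio of 1.77 and a log2 ratio of 0.82. Hnrnpul1 was at 33.9 and 37.45 FPKM. Hnrnpul2 was at 21.03 FPKM (14.9 to 27.2) against 19.7 FPKM (13.9 to 25.5), and it is the 1 member whose log2 ratio changed sign on rescaling, from -0.09 to 0.06. Hnrnpu supplied 55.9% of the summed level of the 3 genes in MHC control against 68.4% in Rbfox2 OE.

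The paraspeckle proteins of the DBHS family, Sfpq and Nono, pair with each other, and their genes were at nearly the same level in the control. Nono (X chromosome, 101429318 to 101448591, plus strand) was at 46.2 FPKM (30.2 to 62.2) in MHC control against 30.4 FPKM (20.5 to 40.3) in Rbfox2 OE, a log2 ratio of -0.59. Sfpq was at 45.2 FPKM (26.8 to 63.7) against 51.0 FPKM (30.0 to 72.1). Nono and Tra2a were the 2 members at least 1.5-fold lower, and the bounds of both overlapped. The ratio of Sfpq to Nono was 0.978 in MHC control against 1.68 in Rbfox2 OE, and the bounds allow 0.430 to 2.11 and 0.743 to 3.52.

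The other RNA-binding proteins showed no separate bounds. Elavl1 (HuR), which stabilizes mRNAs with AU-rich elements, was at 15.1 FPKM (8.33 to 21.9) in MHC control against 11.4 FPKM (6.99 to 15.8) in Rbfox2 OE. Tia1 and Tial1, which bind U-rich sequence next to weak splice sites and form stress granules, were at 7.10 and 7.72 FPKM and at 17.8 and 22.9 FPKM. Tardbp (TDP-43), which represses cryptic exons, was at 57.4 FPKM (33.4 to 81.4) against 51.1 FPKM (26.3 to 76.0). Of the 4 RBM genes, Rbm39, Rbm5 and Rbm10 were higher and Rbm25 lower, with log2 ratios of 0.23, 0.10, 0.51 and -0.15. Rbm10, an X-linked splicing regulator, had the widest interval of the members relative to its value, at 9.99 FPKM (0 to 21.7) against 14.7 FPKM (2.03 to 27.3).

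**Figure D5:**
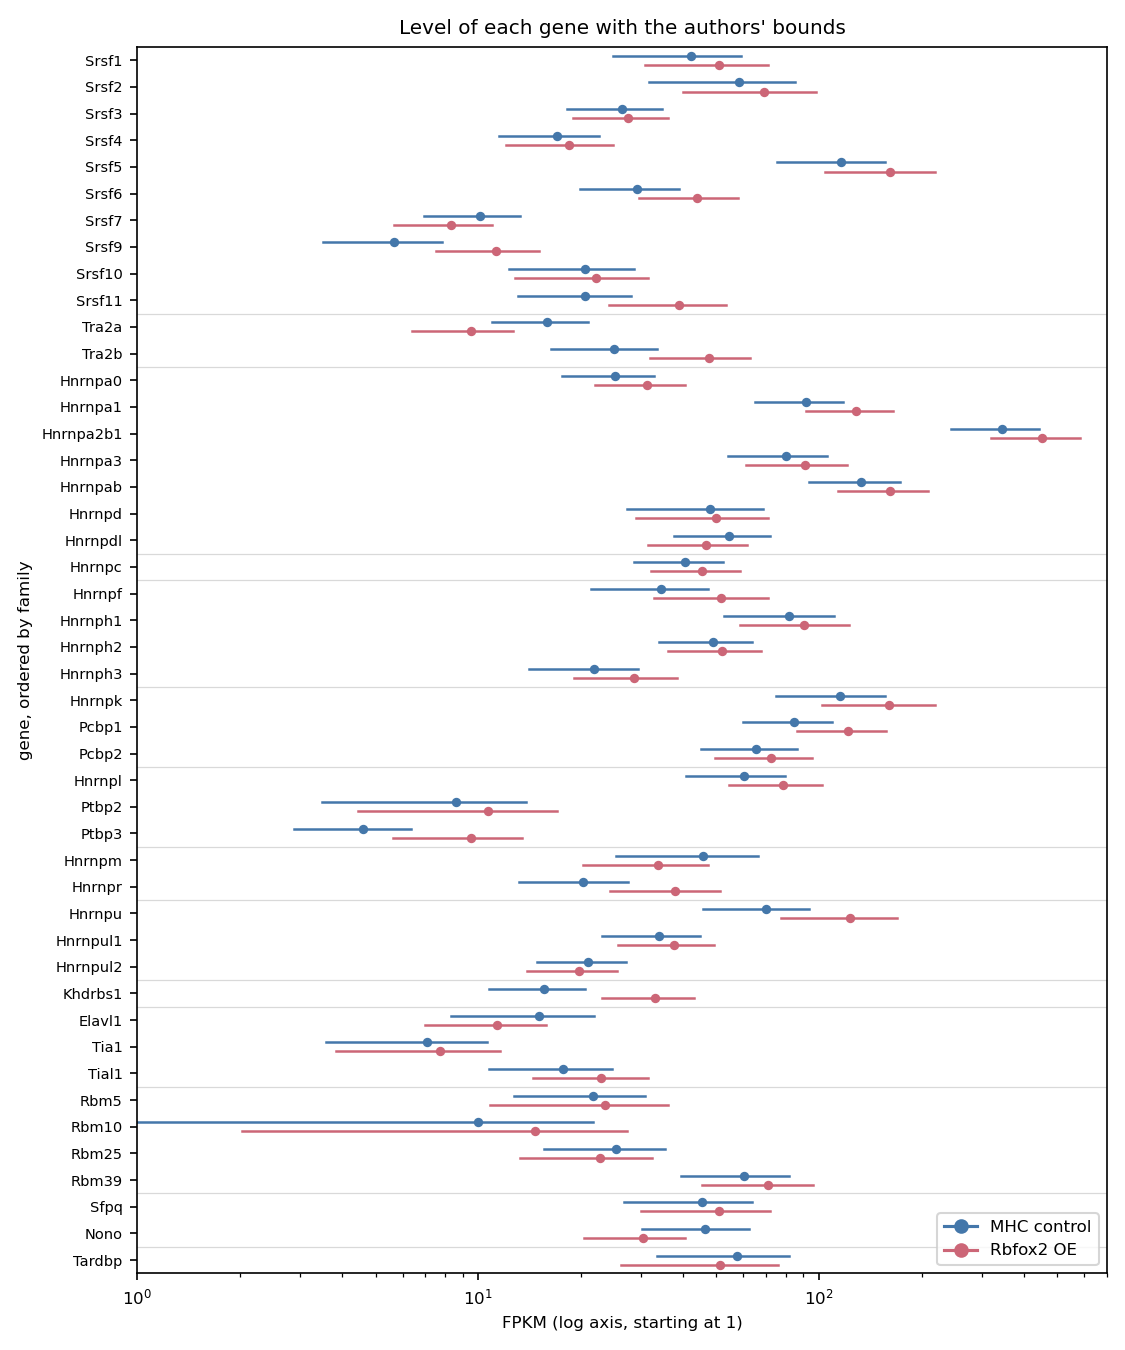
FPKM of each of the 46 genes in MHC control (blue) and Rbfox2 OE (red) on a log axis, ordered by family; points are the authors' values and lines run from the lower to the upper bound. Levels range from 4.61 FPKM for Ptbp3 in the control to 452 FPKM for Hnrnpa2b1 in Rbfox2 OE, and Khdrbs1 is the 1 gene whose lines do not overlap (the lower bound of 0 for Rbm10 in the control is off the axis).

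Annotated transcripts that are targets of NMD were common in these genes. In GENCODE M21, 29 of the 46 members (63.0%) have at least 1 transcript of the NMD type, against 29.1% of the 10824 protein-coding genes compared, and 35 (76.1%) have a retained-intron transcript, against 60.8%. The members also have more annotated transcripts, with a median of 9 against 5. All 7 members that were at least 1.5-fold higher in Rbfox2 OE on FPKM + 1 (Khdrbs1, Ptbp3, Tra2b, Srsf9, Srsf11, Hnrnpr and Hnrnpu) are among the 29 with an NMD transcript, and 0 are among the other 17. By the plain ratio 1 of the 17, Hnrnpf, was also at least 1.5-fold higher. Over all protein-coding genes compared, 13.3% of those with an NMD transcript and 17.4% of those without were 1.5-fold higher on FPKM + 1. In the other direction, 1 of the 29 (Tra2a) and 1 of the 17 (Nono) were at least 1.5-fold lower. Over all protein-coding genes compared, 24.1% of those with an NMD transcript and 21.3% of those without were. The median log2 ratio was 0.35 for the 29 and 0.15 for the 17. The order of the medians was the reverse over all protein-coding genes compared, at -0.12 for genes with an NMD transcript and -0.04 for those without. The values are for whole genes and do not separate productive from NMD transcripts.

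The sequence TGCATG, the DNA form of the RBFOX motif, was searched on the transcript strand of the longest protein-coding transcript of each gene. It occurs in 22 of the 46 members (47.8%) and in 55.5% of the protein-coding genes compared, at 0.234 and 0.281 sites per kilobase. Introns, where RBFOX proteins mostly bind, were not searched. Khdrbs1, Tra2b, Ptbp3 and Srsf11 are shown because they are among the members with the largest ratios and each has 2 sites. The windows are from GENCODE M21 on GRCm38, all on the minus strand of the genome and read 5′ to 3′ on the transcript, with 10 bases on either side and TGCATG in capitals.
Khdrbs1, coding sequence, chr4:129725652-129725677: aatatggatcTGCATGtcttcattga
Khdrbs1, 3′ untranslated region, chr4:129714169-129714194: cctgtagcagTGCATGatgggcattt
Tra2b, 3′ untranslated region, chr16:22246611-22246636: aagtatgtttTGCATGtattttttta
Tra2b, 3′ untranslated region, chr16:22244884-22244909: catgaacttgTGCATGtttacagata
Ptbp3, 3′ untranslated region, chr4:59476298-59476323: tttataaacgTGCATGctttctttca
Ptbp3, 3′ untranslated region, chr4:59472013-59472038: aactgtgtagTGCATGgttaattcaa
Srsf11, 3′ untranslated region, chr3:158011749-158011774: gatgaacagcTGCATGcatctccagc
Srsf11, 3′ untranslated region, chr3:158011631-158011656: atgcactgatTGCATGttaccccaaa

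The median log2 ratio was 0.16 for the 22 members with TGCATG and 0.29 for the 24 without, and 5 and 2 of them were at least 1.5-fold higher on FPKM + 1. Over all protein-coding genes compared, 15.2% with the motif and 17.5% without were. Tra2a and Nono, the 2 members at least 1.5-fold lower, are among the 24 without. Of all members below 0, however, 6 are among the 22 with the motif and 3 among the 24 without. The share above 0 was 72.7% of the 22 and 87.5% of the 24, against 43.9% and 48.2% of all protein-coding genes compared. The medians over all those genes were -0.10 with the motif and -0.03 without.

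Genes that act on these proteins were compared from a list of 16: SR protein kinases, the importins that carry SR proteins and hnRNPs into the nucleus, arginine methyltransferases and a phosphatase. They lay on the other side of 0 from the members, with 12 of 16 lower in Rbfox2 OE and a median log2 ratio of -0.42. The median of all genes compared, -0.06, was also below 0. On rescaling it was 0.06, while the median was -0.28 for the 16 and 0.38 for the members. The share above 0 was 25% of the 16, against 46.2% of all genes compared. The share lower with separate bounds was 6.25% of the 16, against 9.33% of all genes. Srpk3, the SR protein kinase typical of muscle, was the 1 gene with separate bounds, at 18.0 FPKM (11.41 to 24.5) in MHC control against 8.22 FPKM (5.07 to 11.36) in Rbfox2 OE. Its bounds overlapped after centring, with an upper bound of 11.9 FPKM in Rbfox2 OE, and after rescaling, with 12.6 FPKM, which left 0 of 16 genes with separate bounds. Srpk2 had a lower ratio, with 22.5 and 7.07 FPKM, but overlapping bounds of 3.35 to 41.6 and 0 to 15.8. Srpk1 was at 10.1 and 8.62 FPKM. Tnpo1, the importin of Hnrnpa1, was at 10.5 and 5.51 FPKM, and Tnpo3, the importin of SR proteins, at 21.2 and 15.2 FPKM, both with overlapping bounds.

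Of 36 further SR-related, hnRNP-related and RNA-binding genes, 34 were compared. Of these 25 were higher in Rbfox2 OE and 9 lower, with a median log2 ratio of 0.16. The share above 0 was 73.5%, against 46.2% of all genes compared. As deposited, 2 had separate bounds, both higher (5.88%, against 6.67% of all genes). On rescaling, 6 were higher with separate bounds (17.6%, against 8.64% of all genes). Rbmx (hnRNP G), an X-linked partner of the Tra2 proteins, was at 15.3 FPKM (10.5 to 20.2) in MHC control against 41.0 FPKM (28.7 to 53.3) in Rbfox2 OE, a log2 ratio of 1.36. Pnn (pinin), an SR-related protein of the exon junction complex, was at 13.5 FPKM (9.41 to 17.6) against 28.6 FPKM (20.1 to 37.0), a log2 ratio of 1.03. The lean towards Rbfox2 OE was thus also seen in RNA-binding genes outside the 46, and neither list is an independent check, since the lists were drawn up with earlier results of these data known.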

How the data were processed

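The deposited table holds gene-level FPKM with bounds and a status, a Cuffdiff output of the authors (column names per the file headers) with each value pooled over the 2 libraries of a group. Cuffdiff 2.2.1, STAR 2.4.2a, HTSeq, DESeq2 and the build GRCm38 (mm10) are named in the submitters' processing notes without roles. The annotation, normalization mode, level of the bounds and use of strand are not given in the sources used here. FPKM hold no fragment counts, so the depth is unknown and no counting intervals are given.

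From these values, log2 ratios were computed with a pseudocount of 1 FPKM for genes averaging 1 FPKM or more (pandas 2.3.3, numpy 2.4.6), with rows sharing a name (110 names) summed. With 1 pooled value per group no model was fitted and no p-value is given. The calculations were tested on simulated data.

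Coordinates, transcript types and sequences are from GENCODE M21 (GRCm38), which holds 99.2% of the table's identifiers, and promoters are from RefSeq. Of the members, 27 overlap another annotated gene, 21 of them one on the opposite strand, and 9 share over 10% of their 50-base transcript sequences with other genes. Such genes may have received or lost fragments.

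Values are given in full for members with separate bounds, with a ratio of at least 1.5-fold, among the 5 most abundant, or opposite in direction to such a relative; others were named to account for every member. For the related lists the rule was up to 5 genes with separate bounds, and Khdrbs3, Ptbp1, Srpk1, Srpk2, Tnpo1 and Tnpo3 were added after values were seen. The members and lists were chosen with earlier results of these data known. Alternatives covered the pseudocount, the filter, the fold threshold, 2 other scalings, the status and repeated names.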

Additional observations from a re-analysis of the deposited data

How the results depend on the processing

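No paired analysis was possible because single libraries have no column in the table used here. Leaving out each library in turn was not run, since each group is 1 pooled value. The spread between libraries and the depth are unknown and limit every result.

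The member at least 2-fold higher, Khdrbs1, was joined by Ptbp3 with a pseudocount of 0.1 FPKM (2 members) or by the plain FPKM ratio, added after seeing the data (2), fell under the threshold with a pseudocount of 5 FPKM (0), and was joined by Srsf9, Srsf11, Tra2b, Ptbp3 and Hnrnpr on rescaling (6). A 1.5-fold threshold gave 7 higher and 2 lower, and a 4-fold threshold 0 higher. Separate bounds were found for Srsf9 as well after centring on the median gene (2 members), and for Srsf9 and Tra2b on rescaling (3). The share higher with separate bounds was 4.35% of the members after centring, against 7.44% of all genes compared. On rescaling it was 6.52%, against 8.64%. No setting gave a member lower with separate bounds. The median log2 ratio of the members lay between 0.21 (pseudocount 5 FPKM) and 0.38 (rescaled), and was 0.23 both without the members that share over 10% of their 50-base sequences and over the 19 members that overlap no annotated gene, settings chosen after seeing the data. The red blood cell marker median, 2.28, became 1.30 with a pseudocount of 5 FPKM, which shrinks the ratios of low genes. The Rbfox2 log2 ratio, 4.23, lay between 3.92 and 4.38.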
